A study of Mus musculus with 8 samples.

Results

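Kctd8 and Yipf7 are neighbouring genes on mouse chromosome 5, and both gave a higher signal in pancreatic islets of βUCP2Tg mice than in islets of wild-type (WT) mice. They are described here together with 8 genes that lie around them on the chromosome: Grxcr1, Guf1, Gnpda2, Gabrg1, Gabra2, Gabra4, Gabrb1 and Commd8. Kctd8 and Yipf7 were chosen by their measured difference in array signal between the groups, so their values are a description and no test is given for them. The other 8 genes were chosen for where they lie. The 10 genes were taken from 26894 gene symbols on the array, by the symbol given for each probe, and they hold 23 of its 56605 probes.

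The βUCP2Tg mice carry a cDNA of Ucp2, the mitochondrial uncoupling protein 2, behind a fragment of the rat Ins2 promoter, with an intron of the rabbit β-globin gene and a polyadenylation signal. The transgene was put in by microinjection, and the line was kept on a C57BL6/J background with WT littermates as controls. The promoter is active in β-cells, whereas the RNA came from whole islets, so fewer cells of a type and less RNA per cell cannot be told apart in these values. Islets of male mice of both genotypes were kept for 8 h in RPMI medium with 200 mg/dL glucose and serum before RNA was extracted, with no other treatment in either group. There were 4 samples of each genotype, each on 1 array with a single dye. Whether a sample was 1 mouse or a pool, and the age of each mouse, are not given with the samples, so p-values measure only the spread between these samples.

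All values below are log2 signals minus the 75th percentile of the same array, so 0 is that percentile, and a difference of 1 is a doubling. The probes read well above background numbered 34439 to 35448 on each βUCP2Tg array and 33191 to 36320 on each WT array, and no spot was saturated. The number of arrays, 4 a group, limits the precision. All 8 arrays lay on 1 slide with WT in one row and βUCP2Tg in the other, so row and genotype cannot be told apart. The main Ucp2 probe (A_51_P297105) read 7.71, 7.50, 7.33 and 6.99 on the βUCP2Tg arrays and 1.18, 0.92, 1.03 and 1.46 on the WT arrays, so the labels match the transgene. A further Ucp2 probe (A_52_P90265) differed by 0.44, and the files do not say whether the transgene's cDNA holds its sequence. The islet endocrine markers Ins1, Ins2, Iapp, Gcg, Sst and Ppy were above background on all 8 arrays, and the log2 of their summed level ran from 10.6 to 11.0 in βUCP2Tg and from 10.8 to 10.9 in WT.

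The genes fall into a few families. Kctd8 encodes an auxiliary subunit that binds the GABA-B receptor, a G-protein-coupled receptor for the transmitter GABA, as do its paralogs Kctd12, Kctd12b and Kctd16. Gabrg1, Gabra2, Gabra4 and Gabrb1 form a cluster of genes for subunits of the GABA-A receptor, a chloride channel opened by GABA. β-cells are known to make GABA, and islet cells to carry receptors of both kinds. Yipf7 belongs to the Yip domain family of membrane proteins of the early secretory pathway. Gnpda2 encodes a deaminase that turns glucosamine 6-phosphate back into fructose 6-phosphate, Guf1 a GTPase of mitochondrial translation, Grxcr1 a protein of the sensory hair bundle of the inner ear, and Commd8 a COMM domain protein.

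The array measures each gene through 60-base probes, and the results on Kctd8 and Yipf7 rest on the following 3, given here 5′ to 3′ as deposited. The Kctd8 probes share no stretch longer than 5 bases, and their place in the transcript was not checked, while Yipf7 has a single probe.
Kctd8 A_51_P448178: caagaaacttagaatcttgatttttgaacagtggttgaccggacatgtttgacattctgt
Kctd8 A_55_P2134536: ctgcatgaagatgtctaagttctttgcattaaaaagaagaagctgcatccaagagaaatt
Yipf7 A_52_P313102: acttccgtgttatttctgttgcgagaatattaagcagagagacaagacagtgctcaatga

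The Gabra2 result rests on a probe that partly overlaps another probe of the same gene. The capitals mark the 29 bases that both hold, which are bases 1 to 29 of A_55_P2027900 and bases 32 to 60 of A_55_P2177351.
Gabra2 A_55_P2027900: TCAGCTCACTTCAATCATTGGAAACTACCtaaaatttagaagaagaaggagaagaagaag
Gabra2 A_55_P2177351: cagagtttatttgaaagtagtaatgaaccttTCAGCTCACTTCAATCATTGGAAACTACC

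Along chromosome 5 the protein-coding genes ran in the order Grxcr1, Kctd8, Yipf7, Guf1, Gnpda2, Gabrg1, Gabra2, Cox7b2, Gabra4, Gabrb1 and Commd8. Cox7b2 was the only coding gene between the outermost of them that is not among the 10. Of the 23 probes, 13 probes for 7 genes were tested, since 4 or more of the 8 arrays read them above background. A further 9 probes were above background on no array.

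Kctd8 was read by both of its probes, and both gave a higher signal in βUCP2Tg. The main probe (A_51_P448178) read 0.31, 0.15, 0.34 and -0.02 on βUCP2Tg arrays 1 to 4, and -2.28, -3.06, -2.74 and -2.70 on WT arrays 1 to 4. Every array was well above background, so Kctd8 RNA was measured in WT islets too, and the groups did not overlap. The means were 0.19 ± 0.17 (SD, n = 4) in βUCP2Tg and -2.69 ± 0.32 (SD, n = 4) in WT, a difference of 2.89 or 7.41-fold. With the normexp background correction, which adds an offset of 50, the difference was 2.14. In processed intensity before scaling, the same probe gave 556.1 to 722.2 units on the βUCP2Tg arrays and 53.2 to 98.1 units on the WT arrays.

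The other Kctd8 probe (A_55_P2134536) was dimmer. It read -2.74, -2.98, -3.00 and -3.34 in βUCP2Tg and -5.29, -7.11, -5.63 and -4.94 in WT. The WT array at -7.11 was not above background and the other 7 arrays were, and again the groups did not overlap. The means were -3.02 ± 0.25 and -5.74 ± 0.95 (SD, n = 4 each), a difference of 2.73 or 6.62-fold. With the WT array at -7.11 set at the lowest signal that counted as above background there, an alternative chosen after seeing the data, the difference was 2.41 or 5.33-fold. βUCP2Tg array 4 was the lowest of its group on both probes, and WT array 2 was the lowest WT array on both.

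Yipf7 was above background in βUCP2Tg and on no WT array. Its probe (A_52_P313102) read -2.75, -2.82, -2.88 and -3.97 in βUCP2Tg and -7.38, -7.11, -7.42 and -7.63 in WT. In βUCP2Tg, 3 arrays lay close together and array 4 lay below them, while all 4 WT arrays were at the level of the array's background. The means were -3.11 ± 0.58 and -7.39 ± 0.21 (SD, n = 4 each). Since the WT signal has only a bound, the difference is given against the lowest signal that counted as above background on each WT array, as at least 6.55-fold higher in βUCP2Tg. The processed intensity ran from 36.2 to 77.6 units in βUCP2Tg and from 2.2 to 3.2 units in WT. The measured difference of 4.28, taken with WT signals that were not above background, came to 0.81 with the normexp background correction, whose added offset of 50 is of the size of these signals. For all 3 probes every βUCP2Tg array lay above every WT array, as for 5.25% of all probes tested, and Kctd8 and Yipf7 were chosen for that contrast.

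**Figure D1:**
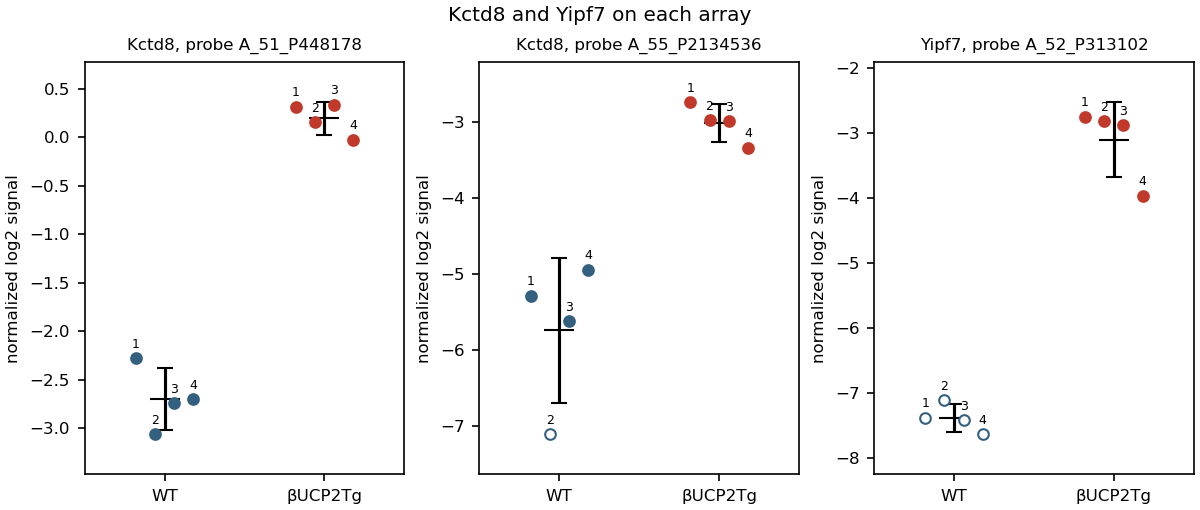
Normalized log2 signal of the 2 Kctd8 probes and the Yipf7 probe on each array. Points are arrays, numbered by replicate, filled where the spot was well above background and open where it was not, and bars are the mean ± SD of 4 arrays. The vertical scale differs between panels. The WT and βUCP2Tg arrays do not overlap for any of the 3 probes, and the Yipf7 points of WT are all open.

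Kctd8 and Yipf7 varied together over the arrays, with a Pearson r of 0.98 over 8 arrays, which mostly restates that both are higher in the same 4 arrays. Among 17859 other genes, each by its brightest probe, the genes most like Kctd8 over the 8 arrays were Tenm4 (r = 0.997), Dtx1 (0.992), Ucp3 (0.992), Ucp2 (0.992) and Cdh22 (0.989). The genes most like Yipf7 were Ucp2 (0.988), Ucp3 (0.988), Cidec (0.986), Kctd8 (0.980) and Cdh22 (0.978). All of these were higher in βUCP2Tg, by 0.55 for Cdh22 up to 6.24 for Ucp2. Ucp3 lies next to Ucp2 in the mouse genome. These correlations are a description, since the 8 arrays form 2 separate groups and Kctd8 and Yipf7 were chosen for the same split.

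Guf1 and Gnpda2 are the next coding genes past Yipf7, and neither passed the test. Over the whole array, 145 of 35363 probes (0.41%) were called, which took an adjusted p under 0.05 together with a change over 1.5-fold, 73 of them higher in βUCP2Tg (0.206%) and 72 lower (0.204%). Among the 8 flanking genes, 1 of 10 tested probes was called, a Gabra2 probe that was lower. Of these 10 probes, 9 were higher in βUCP2Tg, against 46.8% of all probes tested, with a median difference of 0.18 against -0.02. At an unadjusted p under 0.05 there were 4 of 10, against 25.2% of all probes. The groups did not overlap for 1 of the 10, against 12.4% of all probes. Probes of 1 gene share their transcript, so these 10 stand for 5 genes.

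Guf1, nearest to Yipf7, read -1.68, -1.80, -1.79 and -1.66 in βUCP2Tg and -1.55, -2.06, -1.84 and -2.01 in WT on its main probe (A_55_P2040425). The highest array of all was a WT array, and the βUCP2Tg arrays fell inside the WT range. The difference was 0.13 (SE 0.13, adjusted p = 0.537 by limma). The other Guf1 probe (A_55_P2461067) differed by 0.18 (SE 0.14, adjusted p = 0.456).

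Gnpda2, the deaminase gene, had 3 probes above background on all 8 arrays. The main probe (A_55_P2482013) read 0.85, 0.97, 0.79 and 0.35 in βUCP2Tg and 0.71, -0.01, -0.01 and 0.33 in WT. WT array 1 and βUCP2Tg array 4 were the ones that overlapped with the other group. The difference was 0.49 (SE 0.20, adjusted p = 0.178 by limma). Probe A_66_P113820 read -1.31, -1.29, -1.35 and -1.67 in βUCP2Tg and -1.47, -2.27, -2.15 and -1.79 in WT, a difference of 0.52 (SE 0.19, adjusted p = 0.143). Probe A_52_P434820 differed by 0.28 (SE 0.26, adjusted p = 0.523). WT array 1 was the highest WT array on all 3 Gnpda2 probes and βUCP2Tg array 4 the lowest βUCP2Tg array. Without WT array 1, the first pair were called higher, by 0.64 (A_55_P2482013, adjusted p = 0.0449) and 0.67 (A_66_P113820, adjusted p = 0.0312). Leaving out WT array 1 also raised the calls on the whole array from 145 to 3759 of 34786 (10.8%), and with all 8 arrays neither probe passed.

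Commd8, the last gene of the stretch, read 0.61, 0.71, 0.57 and 0.44 in βUCP2Tg and 0.56, 0.18, 0.23 and 0.61 in WT on its main probe (A_55_P2728038). WT arrays 1 and 4 were among the βUCP2Tg arrays, and WT arrays 2 and 3 were below them. The difference was 0.19 (SE 0.13, adjusted p = 0.383 by limma), and the other Commd8 probe (A_52_P112721) differed by 0.15 (SE 0.11, adjusted p = 0.431).

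**Figure D2:**
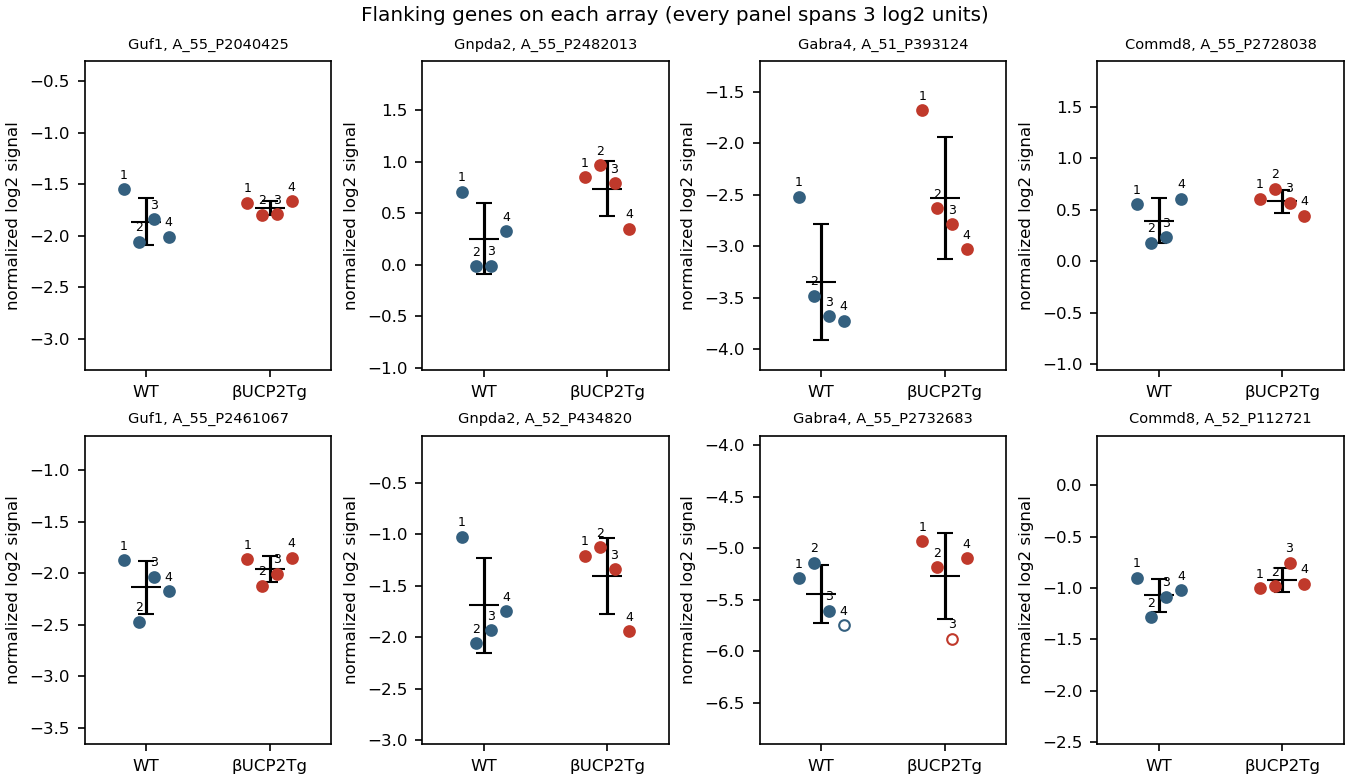
Normalized log2 signal on each array for 2 probes each of Guf1, Gnpda2, Gabra4 and Commd8, with every panel spanning 3 log2 units. Points are arrays, numbered by replicate, filled where well above background, and bars are the mean ± SD of 4 arrays. The groups overlap in all 8 panels, and WT array 1 is the highest WT array in the panels of Guf1 and Gnpda2, in the upper Gabra4 panel and in the lower Commd8 panel.

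Of the GABA-A receptor subunit genes of the stretch, Gabra2 and Gabra4 could be tested and only Gabra2 was called. Gabra2 encodes an α subunit and was the only flanking gene called. Its probe A_55_P2027900 read -4.52, -4.79, -4.35 and -4.23 in βUCP2Tg and -3.28, -3.48, -3.10 and -3.46 in WT. All 8 arrays were above background, and every βUCP2Tg array lay below every WT array. The means were -4.47 ± 0.24 and -3.33 ± 0.18 (SD, n = 4 each), so the signal of this probe fell by 1.14 on the log2 scale, or 2.20-fold (SE 0.15, adjusted p = 0.0364 by limma). The processed intensity was 19.1 to 30.1 units in βUCP2Tg and 39.8 to 54.1 units in WT. The call was lost when βUCP2Tg array 1, 2 or 3 or WT array 2, 3 or 4 was left out (adjusted p from 0.0806 to 0.130 by limma). In those fits 8 to 25 probes were called on the whole array (0.0228% to 0.0716%), against 145 (0.41%) with all 8 arrays. The call held without βUCP2Tg array 4 and without WT array 1, when 4.18% and 10.8% of all probes were called. It was also lost with probes above background on at least 1 array (adjusted p = 0.0528, 0.0971% of all probes called). The same held without a filter on dim probes (adjusted p = 0.0730, 0.0371% called) and with the replicate number as a block (adjusted p = 0.107, 0.0396% called). The methods' t-test gave an adjusted p of 0.0630, also past the limit, while the difference stayed between -1.22 and -1.03 with each array left out. With the normexp background correction, which adds an offset of 50, it was -0.55 and under the fold limit (adjusted p = 0.0154).

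The other 3 Gabra2 probes were above background on no array, including A_55_P2177351, which shares the 29 bases in capitals above and read between -8.22 and -7.54. The probes of Gabra2 therefore disagree on whether its RNA was detected, and the call rests on the only probe that read a signal. The bases of A_55_P2027900 past the shared stretch end in a run of aag units, and the motif aagaagaag was found on either strand in 165 of the 56605 probes (0.291%). Of the 125 such probes tested, 2 were called (1.6%, against 0.41% of all probes). The median difference of the 125 was -0.18 against -0.02 for all probes tested. For those with the motif on the strand printed, 1.87% were called and the median was -0.23. In both counts the 2 called were A_55_P2027900 itself and Kctd8 probe A_55_P2134536, with its difference of 2.73. Kctd8 was chosen for its difference, so nothing is read from its direction or from either share. The main Kctd8 probe does not hold the motif. What A_55_P2027900 bound was not tested.

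**Figure D3:**
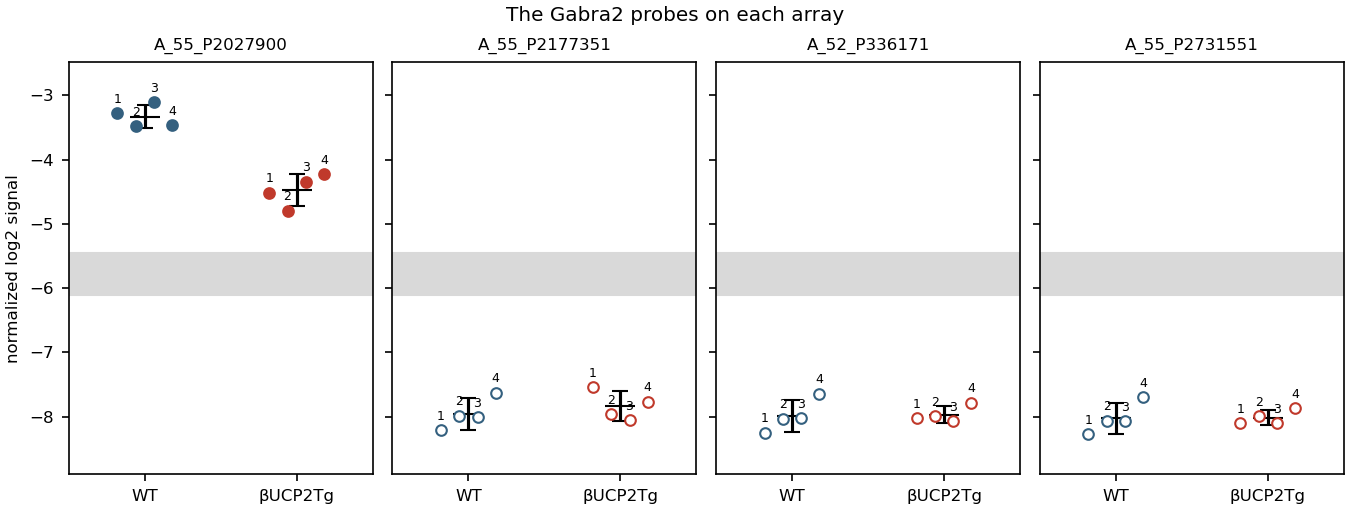
Normalized log2 signal of the 4 Gabra2 probes on each array, on 1 shared axis. Points are arrays, numbered by replicate, filled where well above background and open where not, and bars are the mean ± SD of 4 arrays. The grey band runs over the 8 arrays' lowest signal that counted as above background, from -6.10 to -5.46. Only A_55_P2027900 lies above the band, with all βUCP2Tg arrays below all WT arrays.

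The summed levels of markers of 2 other cell types did not overlap between the genotypes, although few or none of their probes were called. The log2 of the summed level of 5 neural and Schwann cell genes (Sox10, S100b, Gfap, Snap25 and Tubb3) ran from 3.02 to 3.23 in βUCP2Tg and from 3.38 to 3.62 in WT, with 7 of 7 tested probes lower, none called by limma and 4 at an unadjusted p under 0.05. S100b differed by -1.18 (adjusted p = 0.0885 by limma), Gfap by -0.55, the main probe of Snap25, which β-cells use too, by -0.34, Sox10 by -0.24 and Tubb3 by -0.16. The sum is mostly Snap25, and the groups overlapped for each of the other 4 genes. The summed level of 5 macrophage genes ran from 2.78 to 2.96 in βUCP2Tg and from 3.19 to 3.57 in WT, with 1 of 9 tested probes called, a Cd14 probe that was lower, against 0.41% of all probes. Of the 9, 6 had an unadjusted p under 0.05 and the median difference was -0.88. The Cd14 probes differed by -2.10 and -1.92, the Cd68 probes by -1.03 to -0.88, the Csf1r probes by -0.56 and 0.03, Adgre1 by -0.37 and C1qa by 0.66. Their part in the Gabra2 difference was not tested. The acinar sum overlapped, from 3.07 to 7.15 in βUCP2Tg and from 3.66 to 8.02 in WT, with 8 of 8 tested probes lower (median -1.82), none of them called by limma or at an unadjusted p under 0.05. The overlap came from βUCP2Tg array 4 at 7.15 and WT array 4 at 3.66. The other arrays ran from 3.07 to 4.61 in βUCP2Tg and from 6.50 to 8.02 in WT. The ductal sum ran from 3.57 to 3.96 against 2.71 to 3.76, and is mostly Krt7 (0.70), whereas Krt19 differed by -1.63 without overlap (adjusted p = 0.0686 by limma) and the Sox9 probes by -0.88 and 0.07, none of them called. The endothelial sum ran from 3.62 to 3.88 against 3.23 to 3.72, and the skeletal muscle sum from -0.99 to -0.51 against -0.97 to -0.51. Of the marker genes reported here, the muscle gene Ckm alone was above background on no array.

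Gabra4, a further α subunit gene, was higher in βUCP2Tg on average but did not pass the test. Its main probe (A_51_P393124) read -1.68, -2.63, -2.78 and -3.03 in βUCP2Tg and -2.52, -3.48, -3.68 and -3.72 in WT. Array 1 was the highest in each group, and WT array 1 lay above 3 of the βUCP2Tg arrays. The difference was 0.82 (SE 0.35, adjusted p = 0.196 by limma). Without WT array 1, when 10.8% of all probes were called, it was 1.10 and passed (adjusted p = 0.0480). The other Gabra4 probe (A_55_P2732683) was above background on 3 arrays of each group and differed by 0.17 (SE 0.23, adjusted p = 0.661).

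Gabrg1 encodes a γ subunit and Gabrb1 a β subunit, and neither could be tested. Of the 5 Gabrg1 probes, 4 were above background on no array. The remaining Gabrg1 probe (A_51_P396883) read -5.59, -6.58, -6.01 and -7.65 in βUCP2Tg and -6.92, -7.98, -7.87 and -6.99 in WT, and only βUCP2Tg array 1, at -5.59, was above background. The Gabrb1 probe (A_51_P368757) lay between -8.28 and -7.69 and the Grxcr1 probe (A_55_P2106379) between -8.38 and -7.78, with no array above background for either. Grxcr1 is the coding gene on the other side of Kctd8, so on that side no neighbour in the list could be measured. Cox7b2, between Gabra2 and Gabra4, was above background on 1 WT array and was not tested.

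The stretch was then set among the rest of the chromosome. Within 5 Mb of the 10 genes, 108 further genes had a probe, with 146 tested probes for 78 genes. None of the 146 was called by limma, where 0.41% of all probes were, and 41 had an unadjusted p under 0.05, where 25.2% of all probes had. Their median difference was -0.09. The groups did not overlap for 12 of them (8.22%, against 12.4% of all probes), and 39.0% were higher in βUCP2Tg, against 46.8%. The median was -0.07 for the 72 tested probes before Grxcr1 and -0.10 for the 73 past Commd8. On the rest of chromosome 5, 6 of 1698 tested probes were called (0.353%), with a median of -0.01. No further gene with a probe lay within 1 Mb of Kctd8 or Yipf7.

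The 3 genes with the largest differences among the tested probes of the window outside the 10 genes were 9130230L23Rik (1.27, adjusted p = 0.0956 by limma), Pgm2 (-1.06, adjusted p = 0.0856) and Rasl11b (-0.95, adjusted p = 0.108). Pgm2 encodes a phosphoglucomutase, and its other tested probe differed by -0.13. All 3 were smaller than the differences of Kctd8 and Yipf7, which were chosen for their size. The window counts came to more under some alternatives. Without βUCP2Tg array 4, 3 probes were called, those of Clock, Ppat and Pgm2, all lower (2.10%, against 4.18% of all probes tested). Without WT array 1 there were 13 (9.09%, against 10.8% of all probes tested).

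**Figure D4:**
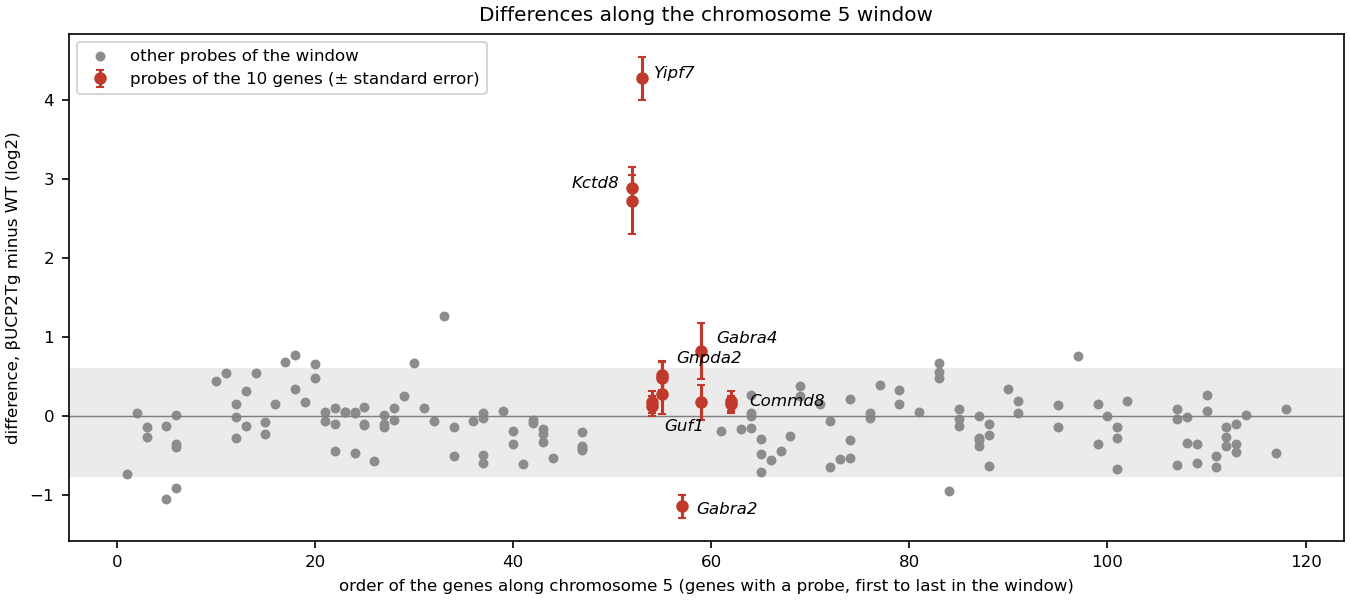
Difference between βUCP2Tg and WT (log2) for each tested probe within 5 Mb of the 10 genes, with genes in their order along chromosome 5. Red points are probes of the 10 genes with the standard error of the difference, grey points are all other tested probes, and the grey band holds the middle 90% of all probes tested on the array, from -0.75 to 0.59. The Kctd8 and Yipf7 points lie above all others, the Yipf7 point being a measured difference from WT signals not above background, Gabra2 lies below the band, and Guf1 and Commd8 lie inside it.

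None of the tested probes for relatives of these genes elsewhere in the genome was called, where 0.41% of all probes were, so for lists of this size the count is near that share. Their counts at an unadjusted p under 0.05 stand against 25.2% of all probes. Among the GABA-B receptor genes and Kctd paralogs, 0 of 8 tested probes were called by limma and 3 had an unadjusted p under 0.05, with a median of -0.15. Gabbr2, the subunit that couples the GABA-B receptor to G proteins, differed by -0.71 (adjusted p = 0.0702), with all βUCP2Tg arrays below all WT arrays. It was called lower with an intensity trend (adjusted p = 0.0496), with another background correction (adjusted p = 0.0240), without βUCP2Tg array 4 and without WT array 1. In these settings 1.07%, 2.31%, 4.18% and 10.8% of all probes were called, against 0.41%, and under no other alternative was Gabbr2 called.

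Kctd12b, like Kctd8 a gene for an auxiliary subunit, read 1.48, 1.56, 1.48 and 0.92 in βUCP2Tg and 1.40, -1.30, -0.32 and 0.72 in WT on its main probe (A_52_P224348). WT array 1 lay with the βUCP2Tg arrays, and the WT spread was wide. Its probes differed by 1.24 (adjusted p = 0.190 by limma) and 1.05 (adjusted p = 0.142), and both were called higher without WT array 1, where 10.8% of all probes were called in either direction. Gabbr1, the subunit that binds GABA, differed by -0.28 on its main probe (A_52_P16232, adjusted p = 0.330). Kctd12 differed by 0.06 on its main probe (A_66_P119376), and Kctd16 was above background on 1 array and not tested.

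Of 14 GABA-A subunit genes outside chromosome 5's cluster, 7 were tested with 8 probes, of which 0 were called by limma and 1 had an unadjusted p under 0.05, with a median of 0.04. Gabrr2 had the highest mean signal and differed by 0.12, and the probes of Gabrr1, the next brightest, differed by 0.34 and -0.09. Gabrd, a δ subunit gene, had the largest difference, 0.84 (adjusted p = 0.0902).

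Of the Yip domain family, 0 of 12 tested probes were called by limma and 5 had an unadjusted p under 0.05, with a median of -0.01 and a range from -0.25 to 0.33. Its brightest genes were Yif1a (-0.08) and Yipf1 (0.33 on the main probe), both measured on every array, unlike Yipf7. Of the amino sugar enzymes, relatives of Gnpda2 by pathway, 0 of 19 were called and 10 had an unadjusted p under 0.05, with a median of -0.09. Gfpt1, which makes glucosamine 6-phosphate, was lower on all 5 of its probes, from -0.97 to -0.37, none past the threshold (lowest adjusted p = 0.0542 by limma). Without βUCP2Tg array 4, when 4.18% of all probes were called, 2 Gfpt1 probes were called lower. Without WT array 1, when 10.8% of all probes were called, 3 were. The paralog Gnpda1 differed by -0.09 on its main probe. Of the mitochondrial translation factors, 0 of 21 were called and 2 had an unadjusted p under 0.05, with a median of 0.04. The brightest were Mtif2 (-0.49, adjusted p = 0.114) and Gfm1 (-0.02, adjusted p = 0.942). Of the COMMD family, 0 of 12 were called and 0 had an unadjusted p under 0.05, with a median of 0.17. The brightest were Commd7 (0.18, adjusted p = 0.449) and Commd3 (0.31, adjusted p = 0.239).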

How the data were processed

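The authors hybridised Cy3-labelled islet RNA to 1-colour Agilent arrays and made a processed intensity per spot with Feature Extraction, version 10.7.3.1 per the file headers and 9.1 per the labels. The authors also deposited log2 values, which were found to be log2 intensity minus a 75th percentile over probes and controls. Its columns of the authors' fold changes and p-values were not used.

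Here, log2 of the deposited processed intensity was taken without control and outlier spots, and each array's 75th percentile was subtracted. The 35363 probes that 4 or more of 8 arrays read well above background were tested in R 4.3.3 with limma 3.58.1 (lmFit, eBayes), and p-values were adjusted over all of them by Benjamini-Hochberg. Calls needed an adjusted p under 0.05 with a fold over 1.5. The fit was tested on simulated data. Plots were drawn with matplotlib.

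The members, gene lists and tests were chosen with earlier results of these data known. Named were all members by every probe, the 3 largest differences of the window, called genes and the 2 brightest of each family list, and the 5 genes most like Kctd8 and Yipf7; further genes (Gabbr2, Kctd12, Kctd16, Gabrd, Cox7b2, Clock and Ppat, and single markers) were named after their values were seen. The files give no positions for the member probes, so gene order and the window of 5 Mb came from RefSeq genes (GRCm38.p6), which differs from the header's mm9, and no coordinates are given. The normexp alternative was planned on mean signals and was run on median signals instead, the columns read here. A few genes of the family and marker lists are not reported here, and counts and sums leave them out. Other alternatives were the filter, scaling, outlier spots, deposited values, test, replicate block and leaving out each array. Shared replicate numbers were not treated as pairs in the main fit, and the labels do not say whether they mark a shared preparation.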

Additional observations from a re-analysis of the deposited data

Results flagged for a closer look

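On the Yipf7 probe (A_52_P313102), βUCP2Tg array 4 lay apart from the rest of its group. It read -3.97 where the other βUCP2Tg arrays read -2.88 to -2.75, and its gap was 0.894 of the group's range. Of 22 groups of 4 arrays examined over the members' probes, 1 stood out in this way, and chance gives about 1 in 20 groups, or 1.1 here. Without that array the Yipf7 difference was 4.57, against 4.28 with it, both taken with WT signals that were not above background.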

How the results depend on the processing

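The leading probes of the 7 tested genes kept their direction under the alternatives run, and the other probes of the 10 genes were not followed in this way. Without a filter on dim probes 21 probes were called on the whole array, with probes above background on at least 1 array 38, on all 8 arrays 237, with normexp 816, with an intensity trend 379, with the methods' t-test after adjustment 26 (8016 at an unadjusted p under 0.05 at any fold), and with the replicate block 14, against 145, and leaving out each array in turn gave 8 to 3759, the highest without WT array 1. The share of calls that were higher was 50.3% here, and 85.7% without a filter, 73.7% at 1 array, 28.3% with normexp, 39.6% with the trend, 65.4% with the methods' t-test and 92.9% with the block, and ran from 23.8% to 100% with each array left out. The flanking count of 1 became 0 without a filter, at 1 array, with normexp, with the methods' t-test and with the replicate block, and ran from 0 to 4 with each array left out, with 4 without WT array 1. The Gabra2 difference kept its direction in all 20 alternatives, from -1.22 to -0.55, but missed the threshold in 11 of them, with an adjusted p by limma from 0.0147 to 0.130. It held without WT array 1 and without βUCP2Tg array 4 and was lost without each of the other 6 arrays in turn. In those 6 fits 8 to 25 probes were called on the whole array, against 145 with all arrays. The cause of the loss was not tested. Under the replicate block its adjusted p was 0.107. The window count of 0 became 2 with normexp (Ppat and Pgm2), and ran from 0 to 13 with each array left out. The family count of 0 became 1 with normexp and 1 with the trend (Gabbr2 in both), and ran from 0 to 7. With normexp the Kctd8 difference was 2.14 and the Yipf7 difference 0.81, and since its offset of 50 is large beside dim signals, it shrinks the differences of dim probes by construction. With each array left out the Kctd8 difference ran from 2.77 to 3.03 and the Yipf7 difference from 4.16 to 4.57. Signals near background limit Yipf7 in WT to a bound and leave Grxcr1, Gabrb1 and Gabrg1 without a test. Correlations of the deviations of arrays with the same number were 0.44, -0.05, -0.01 and -0.24.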
